A study of Mus musculus with 15 samples.

Results

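The elastic fibre and microfibril genes are 10 genes of the mouse lung: Eln, Fbn1, Fbln1, Fbln2, Fbln5, Efemp1, Efemp2, Mfap4, Mfap5 and Emilin1. They were chosen by symbol from the 33340 genes of the count table, in a choice made with earlier results of these data known, and each of the 10 was among the 17457 genes tested. RNA-seq was carried out on polyadenylated RNA from whole lungs of male C57BL/6 mice, adult by the age the methods give. Bleomycin, a drug that breaks DNA and scars the lung, was given once into the trachea at 5 U/kg. The 15 libraries comprised 4 controls at day 0 and, after bleomycin, 4 at day 7, 4 at day 14 and 3 at day 21. These numbers are those of the sample titles, while the design text of the series gives 3 for each time point. The controls were labelled as untreated except day 0 replicate 4, whose treatment label named bleomycin while its title named a control. This library was kept in day 0 by its title. The study calls its libraries of a day biological replicates, but the labels do not tie each library to an animal, so the p-values measure the spread between these libraries.

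Elastic fibres let the alveolar wall and the large airways and vessels recoil after each breath. Their core is cross-linked elastin, which is laid down on a scaffold of fibrillin microfibrils with the help of fibulins. Microfibril-associated proteins and EMILINs sit on the microfibrils or at their border with elastin, and most elastic fibre assembly takes place during lung development and early postnatal life.

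Each library held 15652008 to 18020661 counts, and the 10 genes had 306 counts or more in every library, up to 123323 for Eln. Levels are given as CPM, read counts scaled to a common library size after TMM adjustment. The lung label held, with summed CPM of 5 epithelial markers (Sftpc, Sftpb, Ager, Hopx and Scgb1a1) of 48590 to 63850 at day 0. The sum was lower after bleomycin, at 24310 to 33380 at day 7, 13010 to 25610 at day 14 and 9074 to 13370 at day 21. The share of counts from mitochondrial genes was 2.28% to 4.22% at day 0, 2.03% to 2.15% at day 7, 2.102% to 4.14% at day 14 and 2.66% to 4.01% at day 21, and no label explains the spread within days 0, 14 and 21. Below, a gene rose or fell where edgeR's quasi-likelihood test, adjusted by Benjamini-Hochberg across all genes, gave an adjusted p below 0.05 with more than a 1.5-fold change. Comparisons with day 0 share the same 4 control libraries. In whole lung RNA, a change in the number of cells of a type and a change in RNA per cell cannot be told apart.

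Most of the 10 genes rose after bleomycin, while Fbln1 and later Efemp1 fell. At day 7, 5 of the 10 genes rose (Eln, Fbn1, Emilin1, Efemp2 and Mfap5), against 8.78% of all genes tested, and 0 fell, against 7.36% of all genes. At an unadjusted p under 0.05, 8 of the 10 differed at day 7, none of them downward, against 38.2% of all genes in either direction. DESeq2 called 6 of the 10 at day 7, against 16.1% of the genes it tested. At day 14, 7 rose, with Fbln2 and Fbln5 added, against 12.0% of all genes, and Fbln1 fell, against 11.2%. At day 21, 7 rose, against 12.4% of all genes, and Fbln1 and Efemp1 fell, against 10.1%. Mfap4 did not pass the test against day 0 at any day. With the mitochondrial share added to the fit, 5, 8 and 9 of the 10 were called at days 7, 14 and 21, against 7.27%, 24.0% and 23.7% of all genes in that fit. Among libraries with a share under 2.5%, 4 of day 7 against 2 of day 0, 7 of the 10 were called, against 12.8% of all genes. Among libraries with a share over 3.5%, 3 of day 14 against 2 of day 0, 7 were called, against 17.7%. The median log2 fold change of the 10 genes was 1.04, 1.13 and 0.99 at days 7, 14 and 21, beside 0.01, 0.02 and 0.02 over all genes tested.

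**Figure D1:**
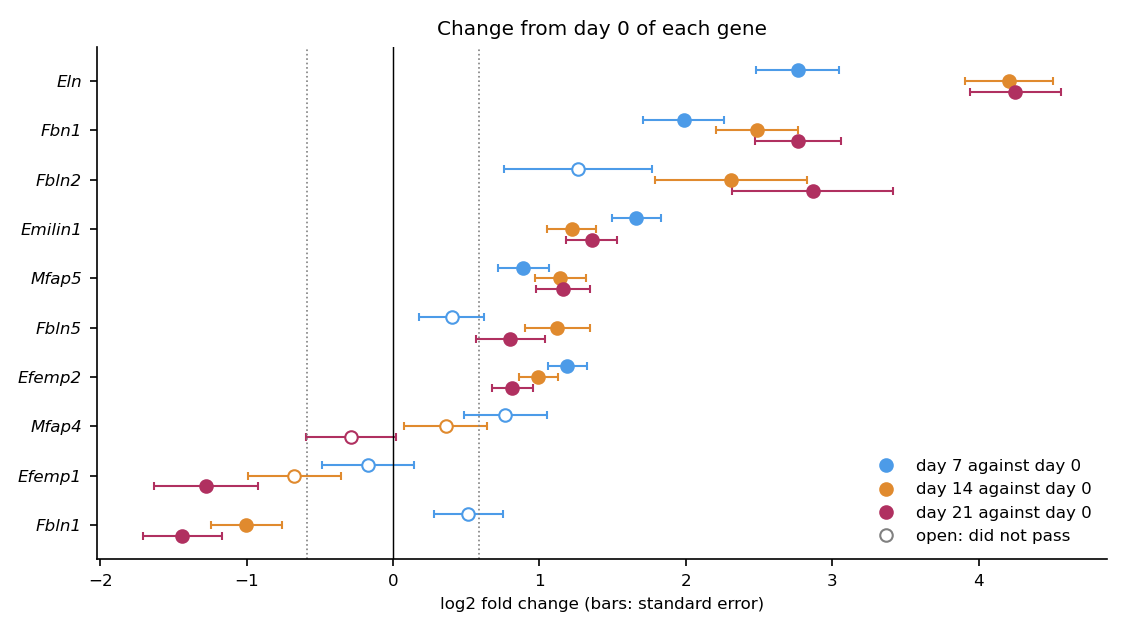
Log2 fold change from day 0 of each of the 10 genes (horizontal axis) at days 7, 14 and 21, with bars for the standard error, filled points for genes that passed the test and dotted lines at a 1.5-fold change. Eln stands farthest to the right at each day, reaching 4.25 at day 21, and Fbln1 moves from 0.52 at day 7 to -1.44 at day 21.

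Eln (ENSMUSG00000029675, chr5:134702593-134747323 on mm10, minus strand) encodes tropoelastin, the soluble precursor of the elastic core. In replicate order, Eln stood at 212, 309.7, 226 and 233 CPM at day 0 and at 1975, 1818, 1202 and 1665 CPM at day 7. Day 14 gave 7286, 4382, 3811 and 2631 CPM, and day 21 gave 4560, 5873 and 3575 CPM. The days did not overlap from day 0 to day 7 or from day 7 to day 14, while the day 21 values lay inside the range of day 14. The mean rose 6.79-fold at day 7 (log2 fold change 2.76 ± 0.28 SE, adjusted p = 2.88e-05), from 245 ± 43.9 to 1665 ± 334 CPM (SD, n = 4 each). At day 14 the mean was 4527 ± 1978 CPM (SD, n = 4), 18.5-fold over day 0 (log2 fold change 4.21 ± 0.30 SE, adjusted p = 5.79e-07). At day 21 it was 4670 ± 1153 CPM (SD, n = 3), 19.05-fold over day 0 (log2 fold change 4.25 ± 0.31 SE, adjusted p = 9.43e-07). This placed Eln at the 99.1, 99.6 and 99.5 percentile of log2 fold changes over all genes tested.

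Fbn1 (ENSMUSG00000027204, chr2:125300594-125507993, minus strand) encodes fibrillin-1, the main structural protein of microfibrils in the adult. Fbn1 stood at 94.6, 119.7, 70.7 and 94.8 CPM at day 0 and at 364, 437, 322 and 382 CPM at day 7. At day 14 the values were 973, 337, 438 and 379.8 CPM, and at day 21 they were 707, 581 and 650.5 CPM. Each bleomycin library was above the day 0 libraries, and day 14 replicate 1 stood far above the other libraries of its day. Fbn1 rose by a log2 fold change of 1.99 ± 0.28 SE at day 7 (adjusted p = 0.000221), 2.49 ± 0.28 SE at day 14 (adjusted p = 1.42e-05) and 2.77 ± 0.30 SE at day 21 (adjusted p = 1.28e-05). Without day 14 replicate 1, the day 14 value was 2.00 (adjusted p = 2.43e-06).

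Mfap5 (ENSMUSG00000030116, chr6:122505845-122529290, plus strand) encodes MAGP-2, a small glycoprotein bound to fibrillin microfibrils. Mfap5 stood at 34.9, 45.05, 51.2 and 43.4 CPM at day 0 and at 91.6, 66.9, 97.2 and 67.8 CPM at day 7. At day 14 it stood at 114.8, 83.4, 106.7 and 80.3 CPM, and at day 21 at 112.1, 74.3 and 106.5 CPM. The bleomycin libraries all lay above those of day 0 and overlapped with each other across days 7, 14 and 21. Mfap5 rose by a log2 fold change of 0.89 ± 0.17 SE at day 7 (adjusted p = 0.0024), 1.14 ± 0.18 SE at day 14 (adjusted p = 0.000191) and 1.16 ± 0.19 SE at day 21 (adjusted p = 0.00032).

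Mfap4 (ENSMUSG00000042436, chr11:61485431-61488900, plus strand) encodes a fibrinogen-domain glycoprotein that binds elastin and fibrillin. Mfap4 stood at 413, 378, 479.8 and 455 CPM at day 0 and at 671, 532, 963 and 773 CPM at day 7. The day 14 libraries had 491, 262, 903 and 561 CPM, and day 21 gave 257, 372.5 and 430.4 CPM. The 4 libraries of day 7 were above those of day 0, day 14 lay on both sides of them, and 2 of the 3 day 21 libraries lay below. The log2 fold change against day 0 was 0.77 at day 7 (95% interval 0.21 to 1.32, adjusted p = 0.0591), 0.36 at day 14 (-0.19 to 0.92, adjusted p = 0.353) and -0.29 at day 21 (-0.89 to 0.31, adjusted p = 0.516). These intervals use a normal approximation and are narrower than the test implies. The day 7 value passed under 5 of 15 alternative settings, among them DESeq2 (0.74, adjusted p = 0.0363) and the libraries with under 2.5% mitochondrial counts (0.88, adjusted p = 0.0208). Exons of Mfap4 and of Mapk7, on the opposite strand and with 479 to 763 counts a library, share 89 bases, and the strand setting of the counting was not stated. On the opposite strand, Eln overlaps the antisense gene Gm30003 and Fbn1 the gene Gm9913, annotated as protein-coding, which had at most 6 and 11 counts a library.

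**Figure D2:**
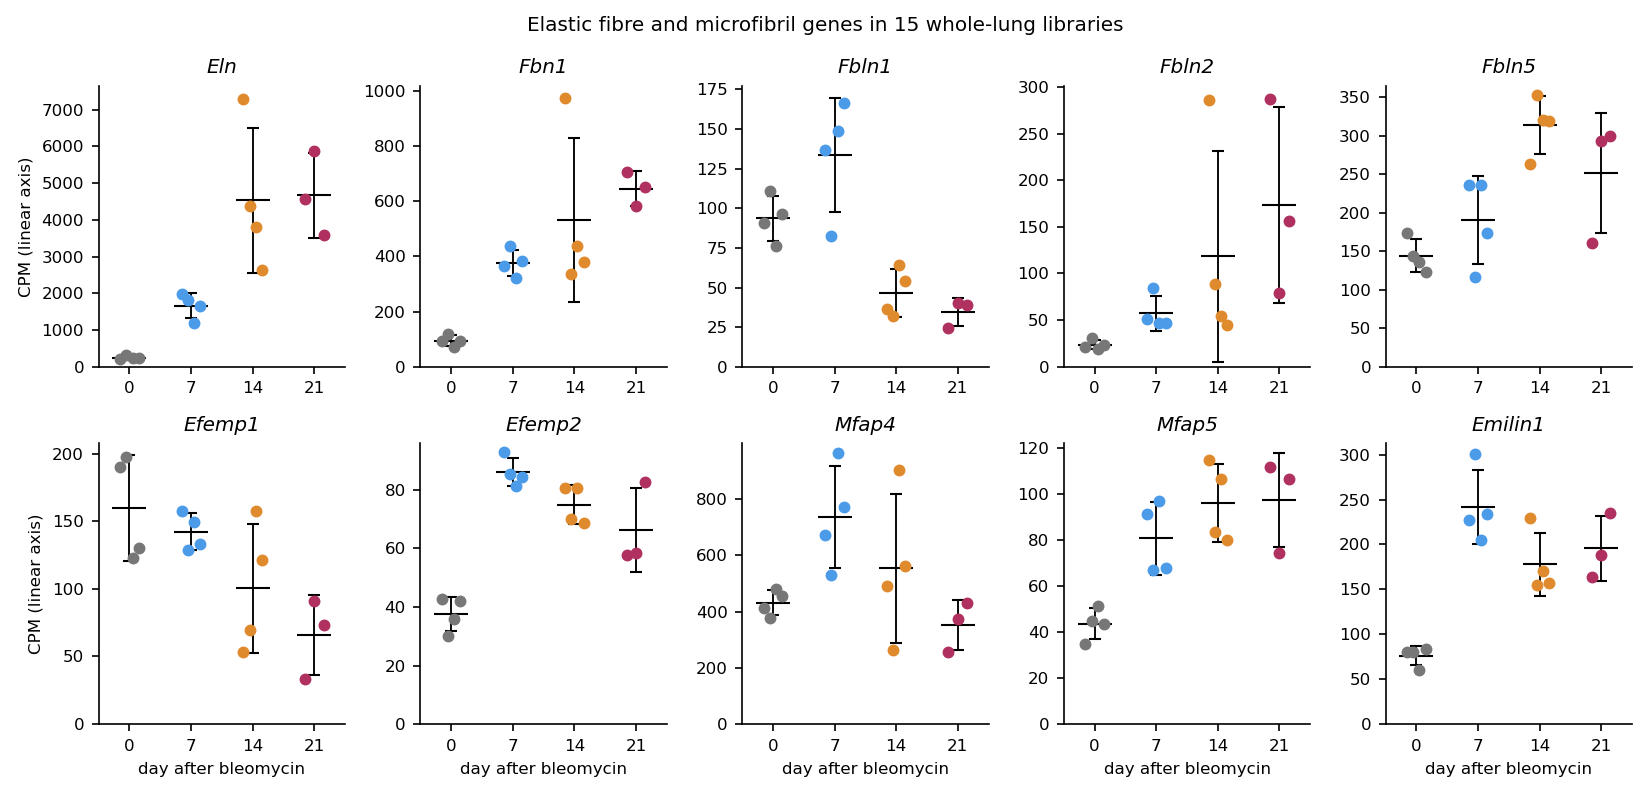
CPM (vertical axes, linear, each gene on its own scale from 0) of the 10 genes in the 15 libraries by day, with horizontal lines for the mean of each day and bars for the SD. Eln climbs from 212 to 309.7 CPM at day 0 to 2631 to 7286 CPM at day 14, Fbln1 drops to 24.4 to 40.1 CPM at day 21, and single libraries of day 14 stand apart for Fbn1 and Fbln2.

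The fibulins are secreted glycoproteins with calcium-binding EGF repeats, and they did not move as 1 group. Fbln5 and Efemp2, whose products bring tropoelastin and lysyl oxidases to the microfibril, rose, as did Fbln2. Fbln1 and Efemp1 fell. For a pair that rose and a pair that fell, the 250 bases before the transcription start are printed here, as RefSeq gives them on GRCm38.p6, so that the start regions of fibulins that moved in opposite directions can be set side by side. The windows are chr12:101819120-101819369 (minus strand) for Fbln5, chr19:5473696-5473945 (plus strand) for Efemp2, chr15:85205699-85205948 (plus strand) for Fbln1 and chr11:28852955-28853204 (plus strand) for Efemp1. Each is written 5′ to 3′ on the strand of the gene, and capitals mark the motifs found, which read as their reverse complement where they lie on the opposite strand.
Fbln5: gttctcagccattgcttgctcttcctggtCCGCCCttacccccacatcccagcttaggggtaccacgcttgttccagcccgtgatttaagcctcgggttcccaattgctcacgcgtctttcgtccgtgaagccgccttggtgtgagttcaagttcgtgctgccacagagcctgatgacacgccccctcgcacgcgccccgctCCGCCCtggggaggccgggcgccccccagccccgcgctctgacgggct
Efemp2: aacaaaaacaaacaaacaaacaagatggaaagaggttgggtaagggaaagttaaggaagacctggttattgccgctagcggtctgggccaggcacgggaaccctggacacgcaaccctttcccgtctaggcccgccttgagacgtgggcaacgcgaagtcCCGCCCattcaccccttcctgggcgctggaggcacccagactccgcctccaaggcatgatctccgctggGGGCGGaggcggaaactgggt
Fbln1: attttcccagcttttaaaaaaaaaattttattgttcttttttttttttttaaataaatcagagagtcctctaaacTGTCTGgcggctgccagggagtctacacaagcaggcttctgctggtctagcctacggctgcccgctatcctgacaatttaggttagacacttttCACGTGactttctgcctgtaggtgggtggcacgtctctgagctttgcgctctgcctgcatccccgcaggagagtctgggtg
Efemp1: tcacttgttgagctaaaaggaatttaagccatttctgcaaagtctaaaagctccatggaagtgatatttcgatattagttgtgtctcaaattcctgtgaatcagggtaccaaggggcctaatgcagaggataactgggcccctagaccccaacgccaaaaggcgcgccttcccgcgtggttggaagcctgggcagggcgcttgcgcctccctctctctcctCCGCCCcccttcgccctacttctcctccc
The search covered both strands and used these motifs: the TATA box, spelled TATAAA, the promoter GC box, spelled GGGCGG, the AP-1 site, spelled TGACTCA, the SMAD element, spelled CAGACA, its palindromic form, spelled GTCTAGAC, the TEAD site, spelled GGAATG, and the E-box, spelled CACGTG. GC boxes stood in the Fbln5, Efemp2 and Efemp1 windows, where both rising and falling genes had one, and 32.7% of 32851 promoters of the same length hold it. The Fbln1 window printed held an E-box 81 bases before the start, a motif of 6.02% of promoters, and a SMAD element 175 bases before it, a motif of 17.1% of promoters. RefSeq also gives other starts for Fbln1, Fbln5 and Efemp2, which are not printed. The second Fbln1 window did hold a GC box, 11 bases before its start, and the second Fbln5 window a SMAD element, 15 bases before its start, so neither motif separated the rising from the falling fibulins. The 7 of the 10 genes with a RefSeq entry gave 11 windows. The GC box was found in 8 windows, of 6 genes, and the SMAD element in 4 windows, of 3 genes. The shares of all promoters given here count single windows, so they compare with the window counts and not with the gene counts. GC content of the 11 windows was 46.4% to 78.8%, beside a median of 52.4% over all promoters. Windows of 1 gene can share bases, as both Fbln1 windows and a pair of the Efemp2 windows do. The Fbn1, Fbln2 and Emilin1 windows lay wholly within exons annotated by GENCODE, 250 of 250 bases. The TATA box (12.4% of promoters), the AP-1 site (4.46%), the palindromic SMAD element (0.167%) and the TEAD site (12.6%) were found in 0 of the 11. These matches describe the letters only.

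Fbln5 (ENSMUSG00000021186, chr12:101746565-101819055, minus strand) stood at 174, 143.5, 136 and 123.5 CPM at day 0 and at 236, 116, 236 and 174 CPM at day 7. At day 14 its values were 263, 353, 321 and 319.9 CPM, all above day 0, and at day 21 they were 161, 294 and 299 CPM. Day 7 straddled day 0 and day 21 replicate 1 fell within it, so day 14 alone was separate from the controls. Against day 0, the log2 fold change was 0.40 ± 0.22 SE at day 7 (adjusted p = 0.197), 1.12 ± 0.22 SE at day 14 (adjusted p = 0.00144) and 0.80 ± 0.24 SE at day 21 (adjusted p = 0.0188). The day 21 call did not pass without day 0 replicate 4 (0.71, adjusted p = 0.0599), day 21 replicate 2 (0.64, adjusted p = 0.0901) or day 21 replicate 3 (0.62, adjusted p = 0.102).

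Efemp2 (ENSMUSG00000024909, chr19:5473954-5482517, plus strand) encodes fibulin-4, without which elastic fibres do not form. Efemp2 stood at 42.6, 30.2, 35.9 and 42.0 CPM at day 0 and at 92.8, 85.4, 81.5 and 84.3 CPM at day 7. By day 14 the values were 80.5, 69.9, 80.8 and 68.8 CPM, and day 21 gave 57.6, 58.6 and 82.7 CPM. The bleomycin libraries were all above the controls, and the level was highest at day 7, with the smallest spread of any of the 10 genes on that day (5.61% of the mean). The change on the log2 scale was 1.19 ± 0.13 SE at day 7 (adjusted p = 4.67e-05), 0.99 ± 0.13 SE at day 14 (adjusted p = 5.94e-05) and 0.81 ± 0.14 SE at day 21 (adjusted p = 0.000587). The day 21 value was 0.58 without day 21 replicate 3, under the 1.5-fold limit. Efemp2 shares 173 exon bases with Mus81 on the opposite strand, which had 225 to 434 counts a library.

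Fbln2 (ENSMUSG00000064080, chr6:91212455-91272540, plus strand) encodes a large fibulin of vessel walls and basement membranes. Fbln2 stood at 21.2, 31.1, 19.4 and 23.6 CPM at day 0 and at 50.9, 84.6, 46.9 and 46.4 CPM at day 7. At day 14 it stood at 285.6, 88.9, 54.5 and 44.4 CPM, and at day 21 at 287, 79.0 and 156 CPM. The bleomycin libraries were all above day 0, and at days 7, 14 and 21 the spread within the day was wider than for any other of the 10 genes, with an SD of 95.6% of the mean at day 14 and 60.4% at day 21. Its log2 fold change was 1.26 ± 0.51 SE at day 7 (adjusted p = 0.0791), 2.31 ± 0.52 SE at day 14 (adjusted p = 0.00322) and 2.87 ± 0.55 SE at day 21 (adjusted p = 0.00121). Replicate 1 of days 14 and 21 carried much of this. Leaving out that library of the day compared gave log2 fold changes of 1.37 at day 14 (adjusted p = 0.0105) and 2.27 at day 21. Adding mitochondrial share to the fit gave 0.65 at day 7 (adjusted p = 0.508), while the libraries under 2.5% alone gave 1.11, which passed (adjusted p = 0.0241).

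Fbln1 (ENSMUSG00000006369, chr15:85205949-85286535, plus strand) encodes fibulin-1, a protein of elastic fibres, basement membranes and blood plasma. Fbln1 stood at 91.0, 110.7, 76.1 and 96.4 CPM at day 0 and at 136.5, 82.8, 149 and 167 CPM at day 7. Day 14 values were 36.6, 31.95, 64.0 and 54.1 CPM, and day 21 gave 24.4, 40.1 and 38.9 CPM. Of the day 7 libraries 3 of 4 were above all controls, while the day 14 and day 21 libraries all lay below them. Against day 0, the log2 fold change was 0.52 ± 0.24 SE at day 7 (adjusted p = 0.125), -1.003 ± 0.24 SE at day 14 (adjusted p = 0.00517) and -1.44 ± 0.27 SE at day 21 (adjusted p = 0.00105). Within the libraries over 3.5% mitochondrial counts the day 14 value was -0.80 and did not pass (adjusted p = 0.0661), and adding the share to the fit gave -0.997, which passed (adjusted p = 0.00792).

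Efemp1 (ENSMUSG00000020467, chr11:28853204-28926743, plus strand) encodes fibulin-3, found in fascia, vessels and the eye. Efemp1 stood at 190, 198, 123 and 129.9 CPM at day 0 and at 158, 129, 149.6 and 133 CPM at day 7. The day 14 libraries held 53.0, 69.7, 157 and 122 CPM, and day 21 gave 33.5, 91.3 and 73.2 CPM. Day 7 lay within the day 0 range, 3 of 4 libraries were below it at day 14, and 3 of 3 were below it at day 21. The change on the log2 scale was -0.17 ± 0.32 SE at day 7 (adjusted p = 0.728), -0.67 ± 0.32 SE at day 14 (adjusted p = 0.117) and -1.28 ± 0.35 SE at day 21 (adjusted p = 0.0133). The day 14 value was -0.14 within the libraries over 3.5% mitochondrial counts (adjusted p = 0.777) and -0.97 without day 14 replicate 3, where it passed (adjusted p = 0.0291).

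Emilin1 (ENSMUSG00000029163, chr5:30913402-30921277, plus strand) encodes a glycoprotein at the border of elastin and microfibrils that restrains TGFβ activation. Emilin1 stood at 80.7, 80.7, 60.6 and 83.4 CPM at day 0 and at 227, 300.6, 205 and 233 CPM at day 7. At day 14 it stood at 229, 155, 170.3 and 157 CPM, and at day 21 at 163, 188 and 235 CPM. The bleomycin libraries were all above the controls, with the highest mean at day 7. Emilin1 rose 3.16-fold at day 7 (log2 fold change 1.66 ± 0.17 SE, adjusted p = 2.48e-05), 2.33-fold at day 14 (1.22 ± 0.17 SE, adjusted p = 6.62e-05) and 2.56-fold at day 21 (1.36 ± 0.17 SE, adjusted p = 5.69e-05).

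Differences between the bleomycin days were tested in the same fit, in contrasts that do not use the means of the controls. Between day 7 and day 14, Eln rose further, 1 of the 10 genes against 2.77% of all genes, by 1.44 ± 0.27 SE on the log2 scale (adjusted p = 0.0101). Fbln1 fell over the same interval, 1 of 10 against 3.23% of all genes, its log2 fold change being -1.52 ± 0.24 SE (adjusted p = 0.00486). Between day 7 and day 21, Eln was higher (1.49 ± 0.29 SE, adjusted p = 0.00575), 1 of 10 against 5.20% of all genes. Fbln1 (-1.96 ± 0.28 SE, adjusted p = 0.00132) and Mfap4 (-1.06 ± 0.31 SE, adjusted p = 0.0392) were lower, 2 of 10 against 4.34% of all genes. The Mfap4 call was lost in 6 of 13 alternatives, namely with mitochondrial share in the fit (-1.15) and without replicate 1, 3 or 4 of day 7 (-1.11, -0.90 and -1.03) or replicate 1 or 2 of day 21 (-0.89 and -1.12), with adjusted p from 0.0653 to 0.132. The other 7 genes did not pass between day 7 and day 21, the nearest being Efemp1 (-1.11 ± 0.35 SE, adjusted p = 0.0506) and Fbln2 (1.60 ± 0.53 SE, adjusted p = 0.0571). Between day 14 and day 21, edgeR called 0 of the 10 genes, against 0.00% of all genes, 0 of the 10 at an unadjusted p under 0.05, and DESeq2 called 0 of the 10 and 106 genes in all. The edgeR fit gave 1714 genes an unadjusted p under 0.05 between these days. By a normal approximation, the 95% interval of the day 21 against day 14 log2 difference was -0.52 to 0.61 for Eln and -0.95 to 0.08 for Fbln1.

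These shifts changed the make-up of the summed reads of the 10 genes. Their summed level ranged over 1278 to 1447 CPM in the controls. It was 3452 to 4003 CPM for day 7, 4417 to 9813 CPM for day 14 and 5648 to 7653 CPM for day 21. Eln supplied 18.1% of this sum in the controls, then 44.7%, 67.8% and 70.6% by days 7, 14 and 21. Mfap4 supplied 32.1% at day 0 and 5.51% at day 21, Efemp1 11.8% and 1.005%, and Fbln1 6.90% and 0.53%. Fbn1 held 6.98% at day 0 and 10.1% at day 21. The shares are of 1 total, so a large rise in Eln lowers the share of the others whatever their own level.

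**Figure D3:**
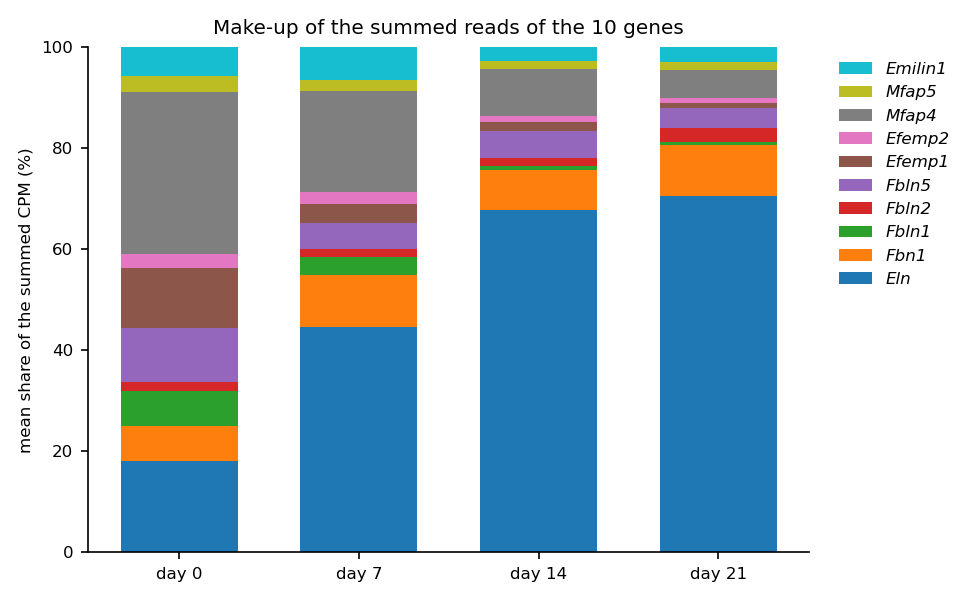
Mean share (vertical axis, percent) of each gene in the summed CPM of the 10 genes at each day. Reads were not scaled to gene length here, so heights compare days and not genes. Eln grows from 18.1% at day 0 to 70.6% at day 21 and Mfap4 shrinks from 32.1% to 5.51%.

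Levels of different genes can be compared only per length, as CPM per kilobase of exon. Exon length here covers the exons of all annotated transcripts of a gene, 8098 bases over 5 transcripts for Eln. It can exceed the length of the RNA expressed, and the order below depends on it. On that scale Mfap4 was the most abundant of the 10 at day 0, with 224.5 ± 23.3 CPM per kilobase (SD, n = 4), followed by Efemp1 with 78.6 ± 19.2 and Eln with 30.3 ± 5.42. Fbln2 was the lowest with 3.74 ± 0.804 CPM per kilobase. The ranges of these neighbours at the top did not overlap, while Fbln1 and Fbln5, next in order, overlapped, and so did the run from Emilin1 through Mfap5 and Efemp2 to Fbn1. At day 7 Mfap4 still led with 382 CPM per kilobase and Eln was next with 206. At day 14 Eln led with 559 CPM per kilobase and Mfap4 followed with 288, with overlapping ranges. At day 21 Eln (577 CPM per kilobase), Mfap4 (184) and Fbn1 (53.3) stood in separate ranges and in that order. Fbln1 was then the lowest, with 7.89 CPM per kilobase.

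Libraries of 1 day did not rank alike for the 10 genes. Day 14 replicate 1 was the highest of its day for 5 genes and the lowest for 2, and day 21 replicate 1 was the highest of its day for 3 and the lowest for 6. At days 14 and 21 the library with most Fbln2 also had the highest summed CPM of the 6 smooth muscle markers (Acta2, Myh11, Cnn1, Tagln, Des and Actg2), while at day 7 the library with most Fbln2, replicate 2, had the lowest sum of its day. That sum was 270.5 to 367 CPM at day 0, 538 to 638 CPM at day 7, 433 to 1107 CPM at day 14 and 363 to 989 CPM at day 21, with the top values in replicate 1 of days 14 and 21. Acta2 rose at days 7, 14 and 21, Actg2 at days 14 and 21 and Des at day 21, and the other markers did not pass. Summed CPM of the 6 fibroblast markers (Pdgfra, Col13a1, Tcf21, Npnt, Dcn and Lum) was 1322 to 1519 at day 0, 1260 to 1495 at day 7, 732 to 1093 at day 14 and 862 to 1302 at day 21. Of these Lum rose at days 7, 14 and 21, while Npnt and Tcf21 fell at days 14 and 21 and Col13a1 at day 21. For 5 adventitial fibroblast markers (Pi16, Dpp4, Ccl11, Col14a1 and Ly6a) the sum was 598 to 677 CPM at day 0, 587 to 700.2 CPM at day 7, 426 to 561 CPM at day 14, below day 0 in each library, and 483 to 612 CPM at day 21, and Pi16 and Dpp4 fell at days 14 and 21. Ccl11 and Col14a1 of this list rose at day 7 and Ccl11 fell at day 14. The sum of 5 pericyte markers (Cspg4, Pdgfrb, Notch3, Kcnj8 and Rgs5) was 206 to 240.3 CPM at day 0, 235 to 289.8 CPM at day 7, 227 to 374 CPM at day 14 and 374 to 604 CPM at day 21. Of these Cspg4 rose at days 7, 14 and 21, Rgs5 at days 14 and 21 and Pdgfrb at day 21. Of the epithelial markers Scgb1a1 fell at days 7, 14 and 21, Sftpc and Sftpb at days 14 and 21 and Hopx at days 7 and 21. The sum of 5 adipose markers (Adipoq, Plin1, Cidec, Cfd and Lep) was 19.2 to 51.5 CPM at day 0, 7.65 to 91.5 CPM at day 7, 1.004 to 3.63 CPM at day 14 and 0.741 to 2.54 CPM at day 21. Of the 4 adipose markers tested, 1, 4 and 3 fell at days 7, 14 and 21. The sum of 4 mesothelial markers (Msln, Upk3b, Wt1 and Lrrn4) was 168 to 302 CPM at day 0, 103 to 453 CPM at day 7, 383 to 909 CPM at day 14 and 399.8 to 658 CPM at day 21, and Msln rose at days 14 and 21. The sum of 5 endothelial markers (Pecam1, Cdh5, Kdr, Tek and Cldn5) was 2486 to 2986 CPM at day 0, 1814 to 2340 CPM at day 7, 1343 to 2238 CPM at day 14 and 1660 to 2105 CPM at day 21, below day 0 in every bleomycin library. Tek fell at day 7, Tek, Pecam1 and Kdr at day 14 and Kdr at day 21. At days 14 and 21 the epithelial, fibroblast, endothelial and adipose sums and Fbln1 all lay below the day 0 range in every library. Summed CPM of 4 leukocyte markers was 200 to 395 and that of 7 cardiac muscle markers 15.3 to 731 over the 15 libraries. Of these, Cd68 rose at days 7, 14 and 21, Cd79a fell at days 14 and 21 and Myh6 fell at day 14. The part of these cell types in the levels of the 10 genes was not tested. Cartilage markers (Col2a1, Acan, Col9a1 and Matn1), from a tissue also rich in matrix genes, summed to 1.595 CPM or less in every library, with Col9a1 and Matn1 at 0 at day 0.

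Pairs among the 10 genes and the nearest other genes were found by the root mean square difference of log2 CPM, centred on day 0, over the 15 libraries. The closest pairs were Efemp2 and Mfap5 (0.35), Efemp2 and Emilin1 (0.40) and Fbln1 and Efemp1 (0.46), and the farthest pair was Eln and Efemp1 (3.92). Among 11857 protein-coding genes, the nearest to Eln were Shc4, a signalling adaptor (0.36), and P4ha3, a collagen prolyl hydroxylase subunit (0.43). Fbn1 was nearest to Prune2 (0.26) and to Col5a2, a fibrillar collagen chain (0.28). Fbln2 was nearest to Pdgfc, a growth factor (0.31), and to Loxl2, a lysyl oxidase (0.33). Emilin1 was nearest to the lysyl oxidase Loxl1 (0.21) and to Col6a2 (0.22), and Mfap5 to Col16a1 (0.18) and to Tgfb2, a TGFβ ligand (0.21). The falling Fbln1 was nearest to Hhip, a hedgehog-binding protein (0.33), and to the chaperone Fkbp4 (0.33), and Efemp1 to Ppp1r26 (0.19) and Rnf43 (0.25). Fbln5 was nearest to Ddah1 (0.23) and Spock2 (0.23), and Efemp2 to Rrm1, a subunit of ribonucleotide reductase (0.18), and Lap3 (0.20). These distances describe profiles over shared libraries and carry no test.

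The wider elastic fibre pathway was followed in 35 other genes, of which 34 were tested and Mmp7, with at most 3 counts a library, was not. At day 7, 10 of the 34 rose, against 8.78% of all genes, and 2 fell, against 7.36%. At day 14, 17 rose, against 12.0%, and 2 fell, against 11.2%. At day 21, 17 rose, against 12.4%, and 2 fell, against 10.1%. The 2 genes that fell were a smaller share than that of all genes at each day. The median log2 fold change of the 34 was 0.40, 0.82 and 0.87, beside the medians near 0 over all genes given above.

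Of the cross-linking enzymes and their chaperone, 5 of 6 rose at day 7 and 6 of 6 at days 14 and 21, against 8.78%, 12.0% and 12.4% of all genes. Lox, the lysyl oxidase that joins lysines of elastin and collagen, stood at 148 to 205.5 CPM at day 0 and at 814 to 902 CPM at day 21. Its log2 fold change was 1.01 at day 7 (adjusted p = 0.0298), 1.95 at day 14 (adjusted p = 0.000366) and 2.34 at day 21 (adjusted p = 0.000161), and adding mitochondrial share to the fit gave 0.55 at day 7 (adjusted p = 0.306). Loxl2 rose by 1.24, 2.24 and 2.45 and Loxl4 by 1.10, 1.65 and 2.42 on the log2 scale at the 3 days. The day 7 calls of these 3 oxidases were lost in 7 (Lox), 4 (Loxl2) and 6 (Loxl4) of 15 alternatives. Each was lost with mitochondrial share in the fit and without replicate 3 or 4 of day 0 or replicate 1 of day 7, and Lox and Loxl4 also without replicate 1 of day 0 or replicate 2 of day 7. In these fits the log2 fold change of Loxl2 was 0.97 with the share and 1.16 to 1.22 without single libraries (adjusted p = 0.051 to 0.0525), and that of Loxl4 was 0.72 and 0.91 to 1.08 (adjusted p = 0.0614 to 0.0871). Fkbp10, a chaperone of collagen and tropoelastin, rose by 1.31, 1.83 and 1.93 (adjusted p = 0.00183, 7.05e-05 and 8.8e-05).

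Of 17 relatives of the microfibril, fibulin and EMILIN genes, 1, 3 and 5 rose at days 7, 14 and 21, against 8.78%, 12.0% and 12.4% of all genes, and 1 fell at each day, against 7.36%, 11.2% and 10.1%. The shares that rose at days 7 and 14 and fell at each day were near or under those of all genes. Fbn2, the fibrillin of developing tissue, was at 0.13 to 0.60 CPM at day 0 and at 1.75 to 13.7 CPM at day 14, a log2 fold change of 3.80 ± 0.73 SE (adjusted p = 0.00106). Without day 14 replicate 1 it was 2.85 (adjusted p = 0.00301). The latent TGFβ binding proteins went both ways. Ltbp2, which binds fibrillin-1 and fibulin-5, stood at 75.8 to 96.4 CPM at day 0, 225 to 290 CPM at day 7, 451 to 830.4 CPM at day 14 and 543 to 762 CPM at day 21 (log2 fold changes 1.47, 2.74 and 2.96). Ltbp4, which also guides elastin assembly, stood at 937 to 1023 CPM at day 0, 356 to 494 CPM at day 14 and 434 to 478 CPM at day 21. It fell by 1.24 on the log2 scale at day 14 (adjusted p = 7.39e-06) and by 1.11 at day 21 (adjusted p = 5.63e-05). At day 7 its log2 fold change was -0.54 (adjusted p = 0.00727), under the 1.5-fold limit. Hmcn1, a giant relative of the fibulins, rose at day 21 (0.86, adjusted p = 0.0198). It lost that call without replicate 1 or 2 of day 0 (0.65 and 0.73) or replicate 1 or 2 of day 21 (0.81 and 0.74). The lower gene of day 7 was Adamts10, a microfibril-binding ADAMTS protein named here after its value was seen (-1.10, adjusted p = 0.015). Adamts10 stood at 182, 154.5, 348 and 303 CPM at day 0, the higher pair in the controls with over 3.5% mitochondrial counts, and at 99.0 to 139 CPM at day 7. Its call was lost with mitochondrial share in the fit (-0.44, adjusted p = 0.296), without day 0 replicate 3 (-0.91, adjusted p = 0.0511) and, by the fold limit, within the libraries under 2.5% (-0.56, adjusted p = 0.0305).

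**Figure D4:**
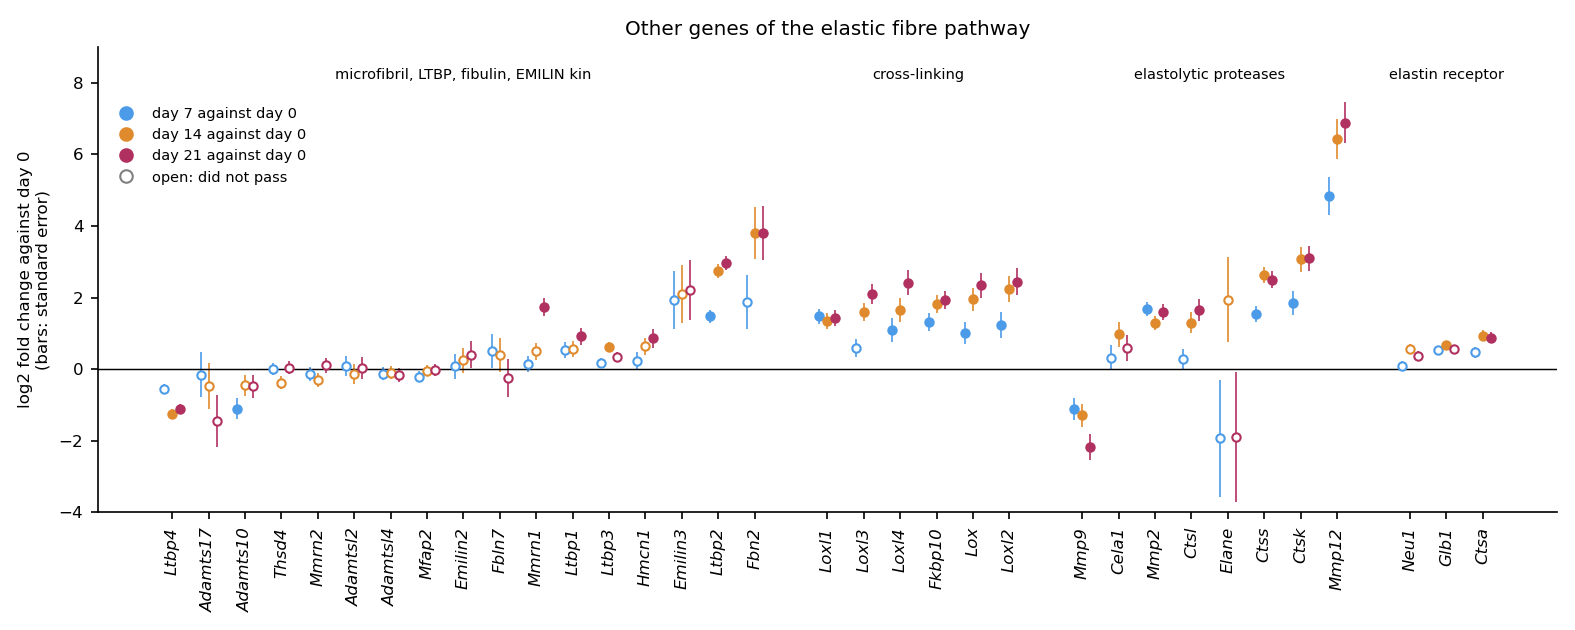
Log2 fold change from day 0 (vertical axis, bars for the standard error) of 34 other elastic fibre pathway genes at days 7, 14 and 21, grouped by role, with filled points for genes that passed the test. Mmp12 reaches 6.88 at day 21, the 6 cross-linking genes all lie above 0, and Ltbp4 and Mmp9 lie below 0.

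Of 8 elastin-degrading proteases tested, 4, 6 and 5 rose at days 7, 14 and 21, against 8.78%, 12.0% and 12.4% of all genes, and 1 fell at each day, near the 7.36%, 11.2% and 10.1% of all genes. Mmp12, macrophage elastase, stood at 4.11 to 4.85 CPM at day 0, 55.95 to 176.5 CPM at day 7, 144 to 501 CPM at day 14 and 221 to 913 CPM at day 21. Its log2 fold change was 4.84 ± 0.52 SE, 6.43 ± 0.56 SE and 6.88 ± 0.58 SE (adjusted p = 4.17e-05, 2.17e-06 and 2.54e-06) at days 7, 14 and 21, and the day 21 value was 6.13 without day 21 replicate 3. The cysteine cathepsins Ctsk and Ctss, which also cut elastin, rose by 3.08 and 2.64 on the log2 scale at day 14, and Ctsl by 1.30. The Ctsl call at day 14 was lost within the libraries over 3.5% mitochondrial counts (0.81, adjusted p = 0.0518). The protease that fell was Mmp9, a gelatinase named here after its values were seen, with log2 fold changes of -1.11, -1.28 and -2.17. Its day 7 call was lost with mitochondrial share in the fit (-1.16), without day 0 replicate 2 (-0.86) and without day 7 replicate 1 (-0.98), and its day 14 call within the libraries over 3.5% (-0.61, adjusted p = 0.187). In the elastin receptor complex of Neu1, Ctsa and Glb1, 0, 2 and 1 of 3 rose, against 8.78%, 12.0% and 12.4% of all genes. Ctsa and Glb1 at day 7, Neu1 at day 14 and Glb1 at day 21 had an adjusted p under 0.05 with a fold change under the limit, of 1.39, 1.46, 1.49 and 1.48. Ctsa, protective protein cathepsin A, rose by 0.94 at day 14 (adjusted p = 0.000188) and 0.88 at day 21 (adjusted p = 0.000595). Glb1, whose splice form is the elastin binding protein, rose by 0.69 at day 14 (adjusted p = 0.000296).

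For comparison with the other main fibre of the lung, 6, 7 and 7 of 7 fibrillar collagen genes rose at days 7, 14 and 21, against 8.78%, 12.0% and 12.4% of all genes, with a median log2 fold change of 2.14, 2.82 and 3.06. The medians of the 10 elastic fibre and microfibril genes on the same scale were 1.04, 1.13 and 0.99. Eln (2.76, 4.21 and 4.25) was above the collagen median at each day, Fbn1 (1.99, 2.49 and 2.77) was below it, and the difference between the 2 lists was not tested.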

How the data were processed

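The authors trimmed reads with TrimGalore, aligned them to mm10 with HISAT2 2.1.0, excluded multi-mapped reads and deposited raw counts per Ensembl gene from HTSeq 0.6.0, without normalization. Annotation release and strand setting are not given in the sources used here, so antisense partners cannot be separated. GENCODE M21 supplied symbols, coordinates and exon lengths for 33267 of 33340 identifiers. Promoter windows came from RefSeq.

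Counts were tested with edgeR 4.0.16 in R 4.3.3 (filterByExpr, TMM, glmQLFit, glmQLFTest) with day as the only term, all 15 libraries in 1 fit and Benjamini-Hochberg adjustment over 17457 genes. Calls needed an adjusted p below 0.05 with more than a 1.5-fold change. Scripts were tested on simulated data. The 10 genes and the lists were chosen with earlier results of these data known. The genes named were the 10, up to 4 called pathway genes in each role by absolute log2 fold change at day 14, and the 2 nearest genes of each called member with a mean of at least 5 CPM. Alternatives were DESeq2 1.42.0, RLE factors, no filter, the 2 groups alone, a replicate block, the mitochondrial share as a covariate, no fold limit, glmTreat and leaving out each library. Sets of libraries by mitochondrial share were added after seeing the data. Depth was 15652008 to 18020661 counts a library.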

Additional observations from a re-analysis of the deposited data

Results flagged for a closer look

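Of 72 groups of 4 libraries examined for the genes named, 5 held a library far from the other 3 of its day by Dixon's test, and chance alone flags about 5% of such groups. Day 14 replicate 1 had 973 CPM of Fbn1, while its fellows had 337 to 438 CPM. For Fbln2, day 7 replicate 2 had 84.6 CPM and its fellows 46.4 to 50.9 CPM. Emilin1 stood at 60.6 CPM in day 0 replicate 3, below the 80.7 to 83.4 CPM of the other controls. In day 7 replicate 1, Ltbp2 stood at 290 CPM, against 225 to 230.5 CPM, and Ctsa at 263 CPM, against 205 to 209 CPM.

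The change from day 0 differed between bleomycin days for 3 of the 10 genes by edgeR's test of the difference itself, in contrasts that do not use the means of the controls. The test called 2 of the 10 between days 14 and 7, against 6.00% of all genes, and 3 between days 21 and 7, against 9.54%. For Eln the log2 difference was 1.44 between days 14 and 7 and 1.49 between days 21 and 7. For Fbln1 it was -1.52 and -1.96 for the same pairs of days. For Mfap4 it was -1.06 between days 21 and 7, a call lost in 6 of 13 alternatives.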

How the results depend on the processing

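The numbers of the 10 genes called against day 0 on adjusted p stayed within 1.5 times the reported count under all alternatives run. Leaving out single libraries gave 5 to 6 calls at day 7, 8 to 9 at day 14 and 7 to 9 at day 21. Of all genes, these fits called 11.8% to 16.5%, 19.6% to 23.7% and 18.8% to 21.4% at those days, in either direction. Between bleomycin days the counts moved more. For day 14 against day 7, 2 genes were called, against 6.00% of all genes in either direction, and glmTreat called 0, against 0.0802%. Leaving out single libraries gave 2 to 4, against 1.95% to 7.47% of all genes. The 4 (Eln, Fbln5, Fbln1 and Emilin1) came without day 14 replicate 1, where the share of all genes was 7.47%. For day 21 against day 7, 3 were called, against 9.54% of all genes in either direction. There glmTreat called 1 (1.01% of all genes), no filter 5 (5.63%), the 2 groups alone 6 (9.87%) and DESeq2 6 (12.0%). Leaving out single libraries gave 2 to 4, against 5.42% to 10.2% of all genes. Of the 35 pathway genes, 12 were called at day 7, against 16.1% of all genes in either direction. The count was 7 once mitochondrial share entered the fit (7.27%), 7 by glmTreat (4.03%) and 8 to 13 without single libraries (11.8% to 16.5%).

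Signs turned in values that passed in no fit. For day 21 against day 14 these were Eln (-0.0017 with the replicate block, -0.18 to 0.36 without single libraries), Mfap5 (-0.0389 with the replicate block, -0.10 to 0.17 without single libraries), Fbln2 (0.56 over all libraries, -0.0318 to 1.46 without single libraries, lowest without day 21 replicate 1) and Emilin1 (-0.0355 to 0.27 without single libraries, lowest without day 21 replicate 3). For day 7 against day 0 they were Ctsl (-0.0729 with mitochondrial share in the fit) and the EMILIN relative Mmrn1, at 0.15 over all libraries. Mmrn1 was at -0.0103 without day 0 replicate 3 and -0.0627 within the libraries under 2.5% mitochondrial share. The cause was not tested.

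The replicate block gave 6, 8 and 9 calls among the 10 genes at days 7, 14 and 21 and 12, 20 and 20 among the pathway genes, against 16.7%, 23.6% and 21.5% of all genes. The sixth at day 7 was Mfap4 (0.73, adjusted p = 0.0242). Of 21 same-numbered pairs, 8 had a correlation of deviations over 0.1, in a range of -0.24 to 0.40. Pairs with different numbers ranged from -0.33 to 0.26. Whether the numbers pair the libraries was not tested. The 10 genes had 306 counts or more in every library, and the biological coefficient of variation was 22.8%.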

Other observations

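Ratios of CPM within a library carry the lengths of both genes and are compared here between days only. The ratio of Mfap4 to Fbn1 was 3.16 to 6.78 at day 0, 1.22 to 2.99 at day 7, 0.505 to 2.06 at day 14 and 0.363 to 0.662 at day 21, so the libraries of day 0 lay above those of each later day. The ratio of Eln to Fbn1 was 2.24 to 3.19 at day 0, 3.73 to 5.43 at day 7, 6.93 to 13.0 at day 14 and 5.50 to 10.1 at day 21. Between the fibulins of the Efemp genes, the ratio of Efemp2 to Efemp1 was 0.153 to 0.323 at day 0, 0.544 to 0.664 at day 7, 0.514 to 1.52 at day 14 and 0.641 to 1.72 at day 21, again without overlap between day 0 and the later days. The ratio of Mfap4 to Mfap5 was 8.40 to 11.8 at day 0, 7.33 to 11.4 at day 7, 3.14 to 8.47 at day 14 and 2.29 to 5.01 at day 21, so days 7 and 14 overlapped day 0. For Fbln2 to Fbln5 it was 0.122 to 0.217 at day 0, 0.199 to 0.727 at day 7, 0.139 to 1.09 at day 14 and 0.269 to 1.78 at day 21, again with overlap of days 7 and 14 with day 0. These ratios were chosen after the values were seen and carry no test.

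Mmrn1, an EMILIN relative of platelets and endothelium named here after its values were seen, did not pass at day 7 (log2 fold change 0.15, adjusted p = 0.673) or day 14 (0.50, adjusted p = 0.108) and rose at day 21 (1.74, adjusted p = 0.00012).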
